A study of Mus musculus with 24 samples.

Results

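The 10 typical MAP kinase phosphatases of the mouse were described across the retroperitoneal white adipose tissue of 24 offspring. The members were taken by gene symbol from the 8 deposited comparison tables, which hold 56895 usable entries, and all 10 were found in each of the 8 tables: Dusp1, Dusp2, Dusp4, Dusp5, Dusp6, Dusp7, Dusp8, Dusp9, Dusp10 and Dusp16. Polyadenylated RNA was sequenced from 3 mice in each of 8 groups, which combined the diet of the mother, the diet of the offspring and sex. All mice were C57BL/6J by their labels, named C57BL/6JRJ in the study's methods, and every animal was fasted overnight before the tissue was taken. CTRL mothers received a diet with 1.0 IU of vitamin D3 per g before and during gestation, and VDD mothers the same diet with 0.0 IU per g, while all mothers were on the control diet from birth to weaning. From 6 weeks of age the offspring ate a low-fat (LF) diet or a high-fat (HF) diet with 45% of its energy as fat for 8 weeks. The sources used here do not name the mother of each mouse, so mice of 1 group may be littermates and the p-values measure the spread between mice as sampled. The study asked how maternal vitamin D deficiency and a later HF diet act on inflammation in this fat depot, with the MAP kinase p38 as one of its readouts.

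MAP kinases (ERK, JNK and p38) are switched on when an upstream kinase phosphorylates both a threonine and a tyrosine in their activation loop. The typical MAP kinase phosphatases remove both phosphates and so switch the kinases off, and many of them are themselves transcribed in response to the kinases, which makes them a negative feedback. They fall into 3 classes: the inducible nuclear enzymes Dusp1, Dusp2, Dusp4 and Dusp5, the cytoplasmic ERK phosphatases Dusp6, Dusp7 and Dusp9, and the JNK and p38 phosphatases Dusp8, Dusp10 and Dusp16. In adipose tissue MAP kinase activity is known to bear on adipocyte differentiation, lipolysis, insulin signalling and inflammation. RNA levels were measured here, and neither the phosphatase proteins nor their activity.

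All members share a catalytic loop in which a cysteine attacks the phosphate and an arginine holds it. The 33 coding bases around it are shown for the most abundant member and for the 4 on which the results below turn, read from the GENCODE M21 transcripts (GRCm38.p6), with the codons of the cysteine and of the arginine in capitals.
Dusp1: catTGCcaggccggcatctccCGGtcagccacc
Dusp4: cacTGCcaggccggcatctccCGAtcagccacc
Dusp7: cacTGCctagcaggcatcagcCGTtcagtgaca
Dusp9: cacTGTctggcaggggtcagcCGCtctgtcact
Dusp10: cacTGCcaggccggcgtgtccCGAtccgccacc
The loop encodes the same 11 residues in 3 members, Dusp1, Dusp2 and Dusp4, although Dusp4 differs from Dusp1 at 2 of the 33 bases. Dusp8, Dusp10 and Dusp16 differ from these at 1 residue, Dusp6 and Dusp7 at 2, and Dusp5 and Dusp9 at 3. The 3 ERK phosphatases of the cytoplasm and Dusp5 thus stand farthest from Dusp1 in this loop.

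Depth on genes ran from 13346779 to 18484346 reads, with a median of 15933506. Some libraries held RNA of other tissues. Skeletal muscle genes (10 markers) summed to 141 to 1042342 normalized reads, a level of reads after scaling for depth, and the muscle enzyme gene Ckm exceeded 1000 in 9 libraries. The kidney gene Umod exceeded 100 in 1 library (VDD LF female, mouse 2303) and the T-lymphocyte gene Cd3e in another (VDD HF female, mouse 2081). These 10 libraries, high in muscle, kidney or T-lymphocyte genes, were left out in an alternative fit of the 14 others, chosen after the data were seen. Mouse 2081 was left out for Cd3e alone, and T lymphocytes may belong to the fat itself. The 8 adrenal markers were not used in that choice, and some of the 14 were high in them. Their sums were 11276 normalized reads in VDD HF female 2121 and 5154 in CTRL HF female 2290, both kept. In CTRL HF female 2292, which was left out, the sum was 14756, and the median of all 24 libraries was 647. The 8 adipocyte markers, among them Adipoq and Plin1, were present in every library, with sums from 424098 to 1082024. In a whole tissue, fewer cells of a type and less RNA per cell cannot be told apart.

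Dusp1, which is known to be induced by stress, growth factors and glucocorticoids, had the highest level per length of exon. Its median over 24 libraries was 287 normalized reads per kb, above 87.8% of the 16822 tested genes with a known length. Dusp4 followed with a median of 154 and Dusp6, the ERK phosphatase, with 140.2, and these neighbours changed places, since Dusp4 was above Dusp6 in 12 of 24 libraries. Dusp10 and Dusp7 had medians of 88.0 and 87.8 per kb and were not separated either, with Dusp10 higher in 14 of 24. Dusp16 (51.3) lay below Dusp7 in 23 of 24 libraries and above Dusp8 (33.1) in 23 of 24. The lowest were Dusp5 with 19.2 per kb, Dusp9 with 9.17 and Dusp2 with 6.10, whose ranges overlapped. Dusp7 and Dusp16 varied least, from 60.5 to 123 and from 35.5 to 74.8 per kb, whereas Dusp9 ran from 0.941 to 99.2.

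**Figure D1:**
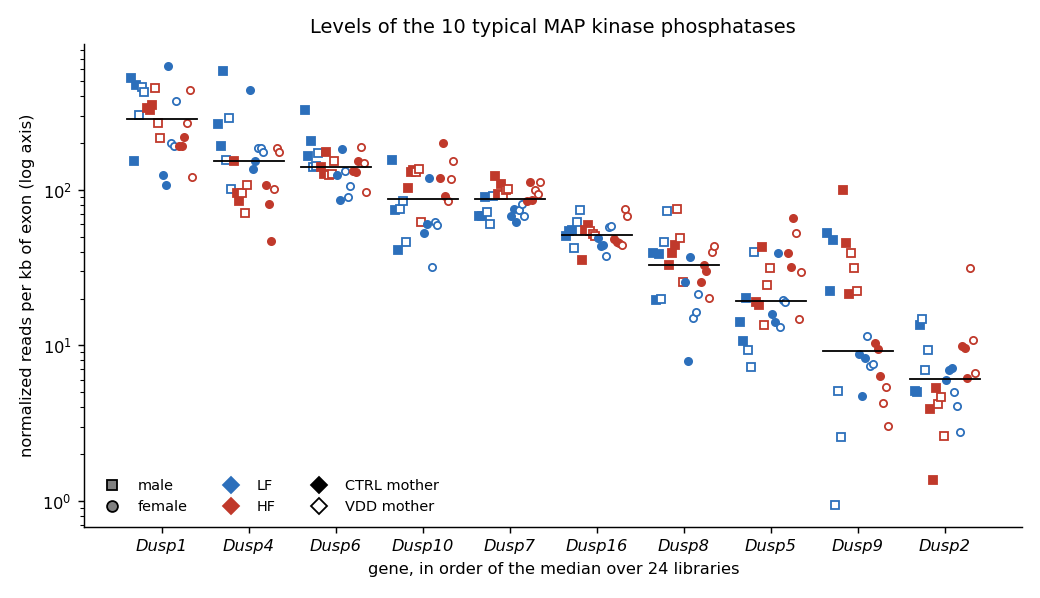
Normalized reads per kb of exon (log axis) of the 10 members in each of 24 libraries. Each point is 1 mouse, with squares for males, circles for females, blue for LF, red for HF, filled symbols for CTRL and open symbols for VDD mothers. The line is the median, which falls from 287 for Dusp1 to 6.10 for Dusp2, and Dusp9 spreads over the widest range.

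The inducible members are known to be read from promoters with sites for the factors CREB and SRF. The 250 bases before the RefSeq start (GRCm38.p6) were found for 8 of the 10 members and searched on both strands for the full cAMP element TGACGTCA, its part TGACG, the AP-1 site TGANTCA, the ETS site CCGGAA and the SRF-binding CArG box, with matches in capitals. They are printed for the most abundant member and for 3 of the members whose mean was higher under HF in each combination of sex and mother.
Dusp1, chr17:26508473-26508722, minus strand: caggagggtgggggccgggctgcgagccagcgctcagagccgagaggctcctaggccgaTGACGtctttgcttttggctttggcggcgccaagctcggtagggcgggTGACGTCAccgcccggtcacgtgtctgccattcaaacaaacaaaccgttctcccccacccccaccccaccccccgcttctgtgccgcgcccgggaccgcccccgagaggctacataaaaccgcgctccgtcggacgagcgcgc
Dusp5, chr19:53528895-53529144, plus strand: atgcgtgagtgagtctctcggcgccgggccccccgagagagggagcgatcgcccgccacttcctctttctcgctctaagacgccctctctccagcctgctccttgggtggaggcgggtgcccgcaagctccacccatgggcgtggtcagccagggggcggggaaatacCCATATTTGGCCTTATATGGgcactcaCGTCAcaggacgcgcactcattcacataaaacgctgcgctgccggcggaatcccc
Dusp8, chr7:142095285-142095534, minus strand: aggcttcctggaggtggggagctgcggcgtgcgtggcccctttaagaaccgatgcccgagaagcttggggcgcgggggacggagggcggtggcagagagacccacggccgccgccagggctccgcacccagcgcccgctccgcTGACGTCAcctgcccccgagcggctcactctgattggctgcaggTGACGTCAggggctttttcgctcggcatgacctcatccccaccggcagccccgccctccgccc
Dusp10, chr1:184034131-184034380, plus strand: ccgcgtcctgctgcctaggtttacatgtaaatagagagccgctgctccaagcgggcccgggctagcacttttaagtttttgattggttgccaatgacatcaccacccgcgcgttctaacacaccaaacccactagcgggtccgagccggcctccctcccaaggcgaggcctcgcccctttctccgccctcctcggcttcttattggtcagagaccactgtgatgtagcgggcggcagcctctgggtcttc
The full cAMP element stood 1 time before Dusp1 and 2 times before Dusp8, and 1.55% of 32851 windows of this length hold it. The CArG box stood 2 times before Dusp5, side by side, and is in 1.47% of windows. The part TGACG, which every full element also holds, is in 17.8% of windows and was present before Dusp5 and Dusp16 as well. None of these letters was found in the window of Dusp2, Dusp6, Dusp7 or Dusp10. The vitamin D response element and the glucocorticoid response element, each as 1 string with 3 free bases, were in none of the 8 windows, and in 2 and 3 of all 32851. The windows shown were richer in G and C than the median window (52.4%), from 59.6% for Dusp10 to 71.6% for Dusp8.

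First, the HF diet was compared with the LF diet over all 24 mice, as the mean over the 4 combinations of sex and mother. Of the 10 members tested, 2 passed both thresholds (an adjusted p under 0.01 in limma over 18399 genes and a fold change above 1.5 or below 0.66), Dusp10 higher and Dusp4 lower under HF. Over all genes tested 9.44% were called, 5.79% higher and 3.65% lower. The median log2 fold change was 0.24 over the 10 members and 0.01 over all genes. Dusp5, Dusp7, Dusp8 and Dusp10 had a higher mean under HF in 4 of 4 combinations, and Dusp4 a lower mean in 4 of 4.

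**Figure D2:**
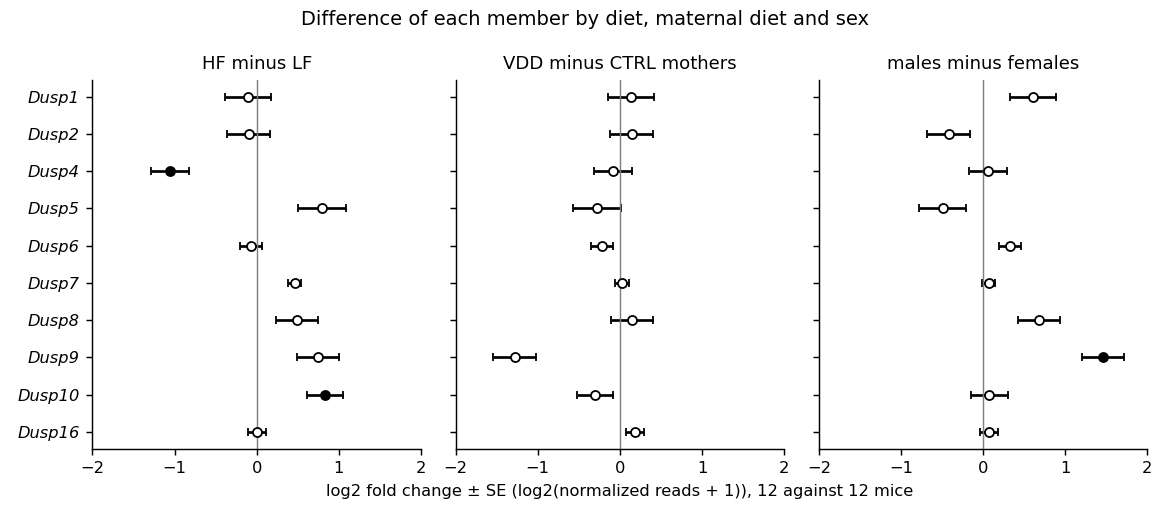
Log2 fold change with its standard error of each member for HF minus LF, VDD minus CTRL mothers and males minus females, each over 24 mice. Filled points passed both thresholds: Dusp4 (-1.05) and Dusp10 (0.83) by diet and Dusp9 (1.46) by sex.

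Dusp4 (ENSMUSG00000031530.6, chr8:34807297-34819894, plus strand) encodes a nuclear phosphatase of ERK and JNK. Under LF it had 732, 526 and 1596 normalized reads in CTRL males, 424, 800.3 and 278 in VDD males, 1200.3, 373 and 422 in CTRL females and 512, 507 and 482 in VDD females. Under HF the values were 421, 264 and 233 in CTRL males, 260.0, 196 and 295 in VDD males, 296, 221 and 128 in CTRL females and 276, 513 and 479.7 in VDD females. The diets did not overlap in either sex of the CTRL offspring, as in 24.7% of all genes in CTRL males and 35.2% in CTRL females. They overlapped in VDD males and in VDD females. Over 24 mice Dusp4 fell by 1.05 on the log2 scale (SE 0.23, limma adjusted p = 0.00228). In CTRL LF vs. CTRL HF males the log2 fold change was -1.53 (SE 0.38, limma unadjusted p = 0.00257, adjusted p = 0.0894), and in CTRL LF vs. CTRL HF females -1.51 (SE 0.48, unadjusted p = 0.014, adjusted p = 0.0901). It was -0.88 (SE 0.40, unadjusted p = 0.0667) in VDD males and -0.29 (SE 0.25, unadjusted p = 0.276) in VDD females. The call over 24 mice held in 24 of 24 fits that left out 1 library. It was lost without the 6 libraries whose names contain the word renal (log2 fold change -0.76, adjusted p = 0.0374) and with scaling by total reads (-0.88, adjusted p = 0.0107). It was also lost without the 10 libraries high in muscle, kidney or T-lymphocyte genes (-0.89). The renal libraries were LF mice 2287, 2302, 2124 and 2312 and HF males 2131 and 2307, so more LF than HF mice were left out. Mice 2124 (1200.3) and 2302 (800.3) had the highest Dusp4 of their groups. Kidney markers summed to 36.6 to 246 normalized reads in these 6 libraries. The word is not explained, and the part of this imbalance in the lost call was not tested.

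Dusp10 (ENSMUSG00000039384.8, chr1:184013302-184075636, plus strand) encodes a phosphatase that acts on p38 and JNK. Under LF the values were 475, 226 and 125 normalized reads in CTRL males, 231, 258 and 140.4 in VDD males, 161, 183 and 361 in CTRL females and 96.5, 189 and 182 in VDD females. Under HF they were 314, 399 and 409 in CTRL males, 396, 414 and 189 in VDD males, 363, 612 and 278 in CTRL females and 257, 356 and 469 in VDD females. The diets overlapped in 3 of the 4 combinations, and in VDD females all HF values lay above all LF values. In VDD females 11.6% of all genes had no overlap between the diets, in either direction. Over 24 mice Dusp10 rose by 0.83 on the log2 scale (SE 0.22, limma adjusted p = 0.00835). The call held in only 9 of 24 fits that left out 1 library, where adjusted p ran from 0.00224 to 0.0178. It was lost without the 6 renal libraries (0.91, adjusted p = 0.0215) and with no filter on low values (0.83, adjusted p = 0.0137). Without the 10 libraries high in muscle, kidney or T-lymphocyte genes the log2 fold change was 0.91. Within VDD females, HF against LF, the log2 fold change was 1.23 (SE 0.33, limma unadjusted p = 0.00766, adjusted p = 0.837).

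Dusp7 (ENSMUSG00000053716.9, chr9:106368632-106375724, plus strand) encodes a cytoplasmic ERK phosphatase and had the smallest adjusted p of the family. It had 203 to 307 normalized reads with a median of 236 in the 12 LF mice, and 283 to 414 with a median of 335 in the 12 HF mice. Its log2 fold change was 0.46 (SE 0.08, limma adjusted p = 0.000455), a 1.38-fold difference under the fold threshold of 1.5. With scaling by total reads it was 0.63 (adjusted p = 6.13e-05), and Dusp7 was called. In males from CTRL mothers the LF values were 227, 229 and 302 and the HF values 414, 317 and 368, without overlap. In VDD males the values were 242, 203 and 307 under LF and 309.6, 335 and 343 under HF. In females they were 227, 252 and 208 (CTRL LF), 283, 375 and 288 (CTRL HF), 251, 272 and 229 (VDD LF) and 335, 317 and 379.9 (VDD HF). Thus the diets did not overlap in any combination of sex and mother, and neither did those of 24.7% of all genes in CTRL males, 33.4% in VDD males, 35.2% in CTRL females and 11.6% in VDD females. In its own table the difference was 0.53 (SE 0.20, limma adjusted p = 0.199) in CTRL males, 0.41 (SE 0.18, adjusted p = 0.218) in VDD males, 0.43 (SE 0.16, adjusted p = 0.133) in CTRL females and 0.46 (SE 0.16, adjusted p = 0.837) in VDD females.

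**Figure D3:**
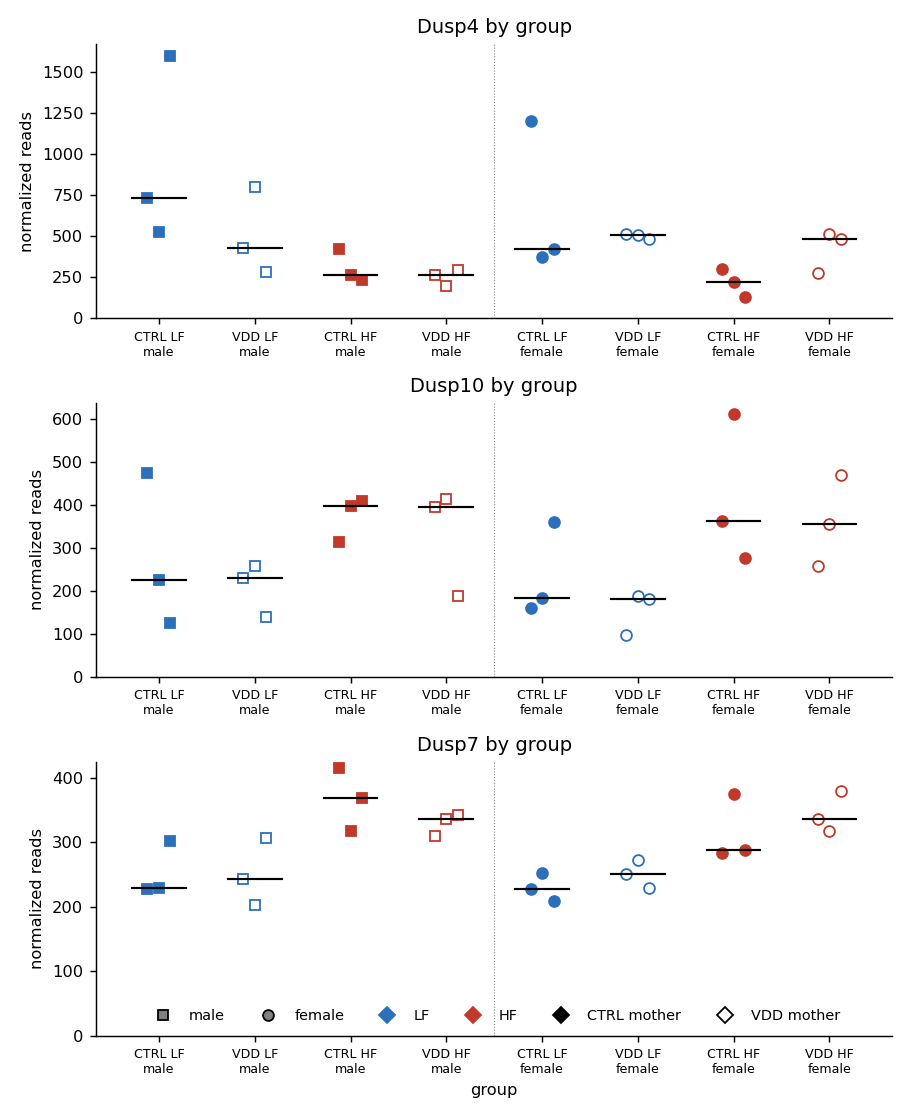
Normalized reads (linear axes from 0) of Dusp4, Dusp10 and Dusp7 in the 8 groups of 3 mice. Points are mice, with colours and symbols as in the key, and lines are group medians. HF values lie below LF values for Dusp4 in CTRL mice and above LF values for Dusp7 in each combination of sex and mother.

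Of the other inducible nuclear members, Dusp5, an ERK phosphatase, had 17.8 to 98.3 normalized reads under LF (median 37.1) and 33.7 to 163 under HF (median 75.5). Its log2 fold change over 24 mice was 0.80 (SE 0.29, limma adjusted p = 0.0439), and in CTRL LF vs. CTRL HF females it was 1.04 (SE 0.43, unadjusted p = 0.0441). Leaving out 1 library gave 0.68 (without VDD LF male 2302) to 0.98 (without VDD LF male 2310), with adjusted p from 0.0051 to 0.0855. Dusp5 passed both thresholds in 1 of these 24 fits, without mouse 2310, which had 98.3 normalized reads and the most skeletal muscle RNA. In the other settings its log2 fold change ran from 0.53 to 1.07. Exons of Dusp5 share 547 bases with an antisense gene, and the sources used here do not state whether strand was used in counting. Dusp1 ranged from 355 to 2078 under LF and from 404 to 1495 under HF, with a log2 fold change of -0.10 (SE 0.28, adjusted p = 0.827). Dusp2 differed by -0.10 (SE 0.26, adjusted p = 0.822).

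Among the remaining members, the X-linked ERK phosphatase Dusp9 had a log2 fold change by diet of 0.75 (SE 0.26, limma adjusted p = 0.0353), with a difference of mean log2 levels of 3.47 in VDD males and of -1.005 to 0.27 in the other combinations. Dusp8, a phosphatase of JNK and p38, had 0.49 (SE 0.26, adjusted p = 0.16). In VDD LF vs. VDD HF females Dusp8 differed by 0.91 (SE 0.34, unadjusted p = 0.0318), from 72.7, 79.8 and 104 to 97.7, 195 and 213 normalized reads. Dusp6 had -0.07 (SE 0.14, adjusted p = 0.754) and Dusp16 0.01 (SE 0.11, adjusted p = 0.97). At an adjusted p under 0.05 with no fold threshold 5 members differed by diet, against 29.2% of all genes, and the same 5 had an unadjusted p under 0.05, against 39.7%.

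Median sums of marker genes of several cell types also differed between the diets, with overlapping ranges, and these sums were not tested. The 8 macrophage markers summed to 5026 to 25562 normalized reads under LF (median 8004) and to 5890 to 41186 under HF (median 16963). The 10 skeletal muscle markers summed to 141 to 1042342 under LF (median 577) and to 292 to 354727 under HF (median 2319). The 6 brown adipocyte markers summed to 652 to 10122 under LF (median 3637) and to 207 to 38688 under HF (median 862), and the 8 adipocyte markers to 487318 to 1082024 (median 721049) and to 424098 to 933237 (median 487436). No marker of these 4 lists was at 0 in all mice of a diet, and their part in the results on Dusp4, Dusp7 and Dusp10 was not tested. Scaling by total reads in place of the median of ratios moved the median gene from 0.01 to 0.18 and the called genes from 61.3% to 82.6% higher under HF. A scaling moves all genes nearly alike, so relative to the median gene Dusp4 stood at -1.06, Dusp7 at 0.45 and Dusp10 at 0.82 under both, while with total reads the call of Dusp4 was lost and Dusp7 was called.

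Next, the offspring of VDD and CTRL mothers were compared over 24 mice. No member passed both thresholds, against 0.103% of all genes (14 or 0.0761% higher and 5 or 0.0272% lower, and with scaling by total reads 16 higher and 34 lower), and 1 member had an unadjusted p under 0.05, against 22.9% of all genes. This was Dusp9, with a log2 fold change of -1.28 (SE 0.26, limma adjusted p = 0.0148). The other 9 members lay between -0.30 and 0.19. They were Dusp1 at 0.14 (SE 0.28, adjusted p = 0.802), Dusp2 at 0.15 (SE 0.26, 0.778) and Dusp4 at -0.09 (SE 0.23, 0.853). Dusp5 stood at -0.28 (SE 0.29, 0.59), Dusp6 at -0.22 (SE 0.14, 0.337) and Dusp7 at 0.02 (SE 0.08, 0.893). Dusp8 stood at 0.15 (SE 0.26, 0.76), Dusp10 at -0.30 (SE 0.22, 0.428) and Dusp16 at 0.19 (SE 0.11, 0.327). The median of the 10 members was -0.03 and that of all genes -0.01. Several marker lists differed in their median sums between the maternal diets, with overlapping ranges, and these sums were not tested. The 10 skeletal muscle markers summed to 196 to 1042342 normalized reads in VDD offspring (median 20742) and to 141 to 66111 in CTRL offspring (median 1123), and the 6 brown adipocyte markers to 915 to 38688 (median 3791) and to 207 to 10122 (median 749). The 8 macrophage markers summed to 5026 to 41186 in VDD offspring (median 8489) and to 5523 to 28591 in CTRL offspring (median 14269). The 6 stromal progenitor markers summed to 10686 to 50154 normalized reads in VDD offspring (median 18934) and to 20009.9 to 44428 in CTRL offspring (median 29861). No marker of these 4 lists was at 0 throughout, and their part in the value of Dusp9 was not tested.

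Dusp9 (ENSMUSG00000031383.8, chrX:73639419-73643514, plus strand) had the widest range of the family, and among males its low values lay in 1 group. Its normalized reads were 144, 61.1 and 129 in CTRL LF males, 2.56, 13.9 and 7.02 in VDD LF males, 269.9, 124 and 58.1 in CTRL HF males and 108, 85.7 and 60.6 in VDD HF males. In females they were 24.1, 12.9 and 22.6 (CTRL LF), 31.3, 19.9 and 20.8 (VDD LF), 28.0, 25.9 and 17.4 (CTRL HF) and 11.6, 14.7 and 8.24 (VDD HF). The 9 males of the 3 other groups had at least 58.1, above every female, whereas the VDD LF males lay within or below the range of the females. These 3 males rested on 2, 14 and 6 reads before scaling, so their levels are known only roughly.

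**Figure D4:**
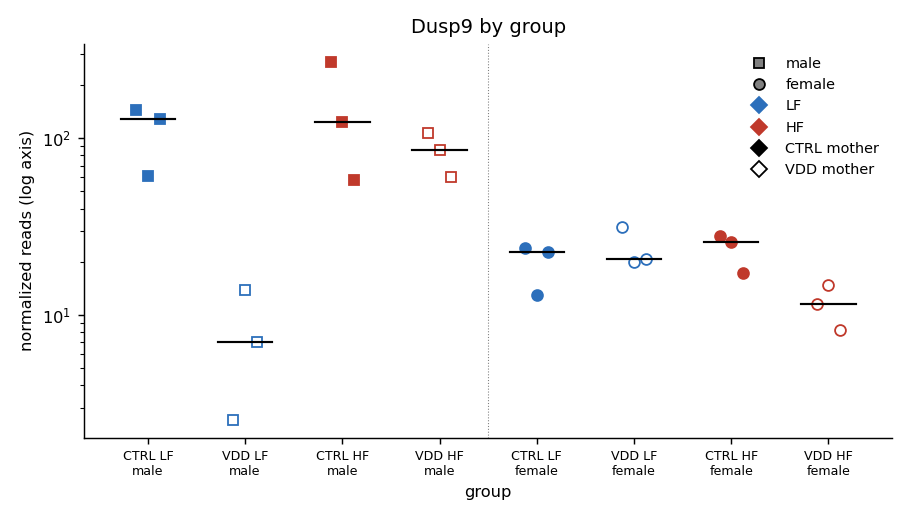
Normalized reads of Dusp9 (log axis) in the 8 groups of 3 mice, with lines at group medians and symbols as in the key. Males of 3 groups lie at 58.1 or above, and the VDD LF males lie between 2.56 and 13.9.

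In CTRL LF vs. VDD LF males, Dusp9 had a log2 fold change of -3.78 (SE 0.61, limma unadjusted p = 0.00042, adjusted p = 0.479), with no overlap between the groups, which held for 13.4% of all genes. Among all genes 6.79% had an unadjusted p under 0.05 there and 0% were called. From LF to HF in VDD males the log2 fold change was 3.47 (SE 0.57, adjusted p = 0.0302), and this pair shares the VDD LF males with the former. With 1 fit over 24 libraries in place of 6, Dusp9 passed both thresholds in both, at -3.81 (adjusted p = 0.00517) and 3.47 (adjusted p = 0.000428). Under HF the males of VDD and CTRL mothers overlapped, with a log2 fold change of -0.61 (SE 0.52, unadjusted p = 0.277). The difference between the HF effects of VDD and CTRL males was 3.21 (SE 0.73, unadjusted p = 0.000294, adjusted p = 0.601), and no gene passed the thresholds in that interaction, where 4.1% of all genes and 1 member had an unadjusted p under 0.05.

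The VDD LF males differed in what other tissue they held. Skeletal muscle markers summed to 241, 50953 and 1042342 normalized reads in mice 2078, 2302 and 2310, and mesothelial markers to 282, 1042 and 11864. Dusp9 was low in all 3, and leaving out each in turn gave log2 fold changes against CTRL LF males of -4.26 to -3.25. Without the 10 libraries high in muscle, kidney or T-lymphocyte genes, the difference between VDD and CTRL mothers over the 14 mice left was -1.77. That fit held 1 VDD LF male, mouse 2078 with 2 reads of Dusp9, and 1 mouse each of the VDD HF males and VDD HF females, taken to vary like the other groups.

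In females of VDD mothers the difference in Dusp9 by diet had the opposite sign. Between VDD LF and VDD HF females its log2 fold change was -0.998 (SE 0.41, limma unadjusted p = 0.0464, adjusted p = 0.837). Against CTRL HF females the VDD HF females had -0.98 (SE 0.41, unadjusted p = 0.0453, adjusted p = 0.289). Neither pair of groups overlapped, against 11.6% and 22.9% of all genes, and the pairs share the VDD HF females. All these groups lay between 8.24 and 31.3 normalized reads. The HF effect differed between males and females by 2.23 over both kinds of mothers (SE 0.52, unadjusted p = 0.00035, adjusted p = 0.185), and the VDD effect by -1.85 (SE 0.52, unadjusted p = 0.00197, adjusted p = 0.699). Among LF offspring alone, a contrast added after the data were seen, the VDD effect differed between the sexes by -4.09 (SE 0.73, unadjusted p = 1.96e-05, adjusted p = 0.18), and by -4.58 to -3.55 when 1 library was left out. Dusp9 was the 1 member with an unadjusted p under 0.05 there, against 5.26% of all genes. In the former interactions 0.0272% and 0% of all genes were called, and no member. An unadjusted p under 0.05 was reached by 3 and 2 of the 10 members, against 8.92% and 6.63% of all genes.

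Males and females were then compared over 24 mice. Of the 10 members 1 was called, Dusp9, higher in males by 1.46 on the log2 scale (SE 0.26, limma adjusted p = 0.00062), and 7.3% of all genes were called, 2.76% higher in males and 4.54% lower. The call held in 24 of 24 fits that left out 1 library. It was lost without the 10 libraries high in muscle, kidney or T-lymphocyte genes (1.15). The sign was not shared by all groups. As differences of mean log2 levels, males minus females, it was 2.38 in CTRL LF, 2.38 in CTRL HF and 2.77 in VDD HF offspring, and -1.71 in VDD LF offspring. Among the marker lists, the 8 macrophage genes summed to 6507 to 41186 normalized reads in males (median 17948) and to 5026 to 26388 in females (median 8000), and the 7 mesothelial genes to 282 to 11864 (median 2841) and 2877 to 14829 (median 5956). The 10 skeletal muscle genes summed to 241 to 1042342 in males (median 3180) and to 141 to 157822 in females (median 677), and the 7 mammary epithelium genes to 10.2 to 851 (median 111) and to 109 to 4082 (median 1023). Of these markers the milk protein genes Csn2 and Wap were at 0 in both sexes and Csn3 in females, and the part of these lists in the difference in Dusp9 was not tested.

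Dusp1, Dusp6 and Dusp8 also had higher means in males with an unadjusted p under 0.05, a share of all genes of 33% in either direction. Dusp1 differed by 0.61 (SE 0.28, limma adjusted p = 0.133), with 506 to 1739.9 normalized reads in males and 355 to 2078 in females. The highest female, mouse 2335 of the CTRL LF group, was the highest of all 24, and without it the log2 fold change was 0.82 (adjusted p = 0.0166). Without VDD HF female 2121 it was 0.49, and over the fits that left out 1 library adjusted p reached 0.241. Dusp8 differed by 0.68 (SE 0.26, adjusted p = 0.0651) and Dusp6 by 0.33 (SE 0.14, adjusted p = 0.0936). Males had a higher mean of Dusp1 and Dusp8 in 4 of 4 combinations of diets and of Dusp6 in 3. The other members had adjusted p of 0.245 or above, Dusp2 at -0.42 (SE 0.26), Dusp5 at -0.49 (SE 0.29), Dusp4 at 0.06 (SE 0.23), Dusp7 at 0.07 (SE 0.08), Dusp10 at 0.08 (SE 0.22) and Dusp16 at 0.07 (SE 0.11).

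Dusp2, a nuclear ERK and p38 phosphatase best known from activated lymphocytes, was scarce in this tissue, at 2.72 to 63.0 normalized reads. Its highest level by far was that of mouse 2081 among the VDD HF females, the library with Cd3e above 100, where 8 T-lymphocyte markers summed to 1456 against 107 to 473 in the 23 others. Without that library Dusp2 did not exceed 29.5. In VDD males Dusp2 had 29.5, 13.9 and 18.7 under LF and 8.42, 9.34 and 5.19 under HF, a log2 fold change of -1.30 (SE 0.44, limma unadjusted p = 0.0228, adjusted p = 0.129). In VDD females it had 10.02, 8.21 and 5.59 under LF and 63.0, 21.6 and 13.4 under HF, a log2 fold change of 1.65 (SE 0.62, unadjusted p = 0.0332, adjusted p = 0.837). Neither pair of groups overlapped, against 33.4% and 11.6% of all genes. The HF effect differed between the sexes by -2.16 over both kinds of mothers (SE 0.52, unadjusted p = 0.000557, adjusted p = 0.198), and without mouse 2081 by -1.85. In CTRL males the values were 10.1, 9.98 and 27.3 under LF and 7.84, 2.72 and 10.7 under HF, and in CTRL females 12.03, 13.9 and 14.3 under LF and 19.8, 19.2 and 12.4 under HF.

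In the 8 comparisons between pairs of groups, each on its own table, no member was called. With 3 mice a group these fits missed most of the changes put into simulated data, so a missing call does not show that groups were alike. Over all genes the called share was 0% in the 4 pairs that differ in maternal diet and in both female pairs that differ in offspring diet, 0.0578% in CTRL LF vs. CTRL HF males and 0.0752% in VDD LF vs. VDD HF males. An unadjusted p under 0.05 was reached by 3 of 9 members tested in CTRL LF vs. CTRL HF males (18.8% of all genes), 2 of 10 between LF and HF males of VDD mothers (25.9%), 3 of 10 in CTRL LF vs. CTRL HF females (28.8%) and 5 of 10 between their LF and HF females (5.05%). The last were Dusp2, Dusp7, Dusp8 and Dusp10, higher under HF, and Dusp9, lower. The groups of 4 of them did not overlap, against 11.6% of all genes. In the other pairs by offspring diet, groups without overlap were found for 2 of 9 members in CTRL males (24.7% of all genes), 3 of 10 in VDD males (33.4%) and 2 of 10 in CTRL females (35.2%). In pairs by maternal diet they were found for 1 of 10 members in LF males (13.4%) and 0 of 9 in HF males (10.3%). In females by maternal diet they were found for 1 of 10 under LF (18.2%) and 1 of 10 under HF (22.9%). By maternal diet, an unadjusted p under 0.05 was reached by 1 of 10 in LF males (6.79%) and 0 of 9 in HF males (5.31%). In females by maternal diet it was reached by 0 of 10 under LF (12%) and 2 of 10 under HF (16.7%). Dusp2 did not pass the filter on low values in CTRL LF vs. CTRL HF males, nor when HF males of both mothers were compared.

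**Figure D5:**
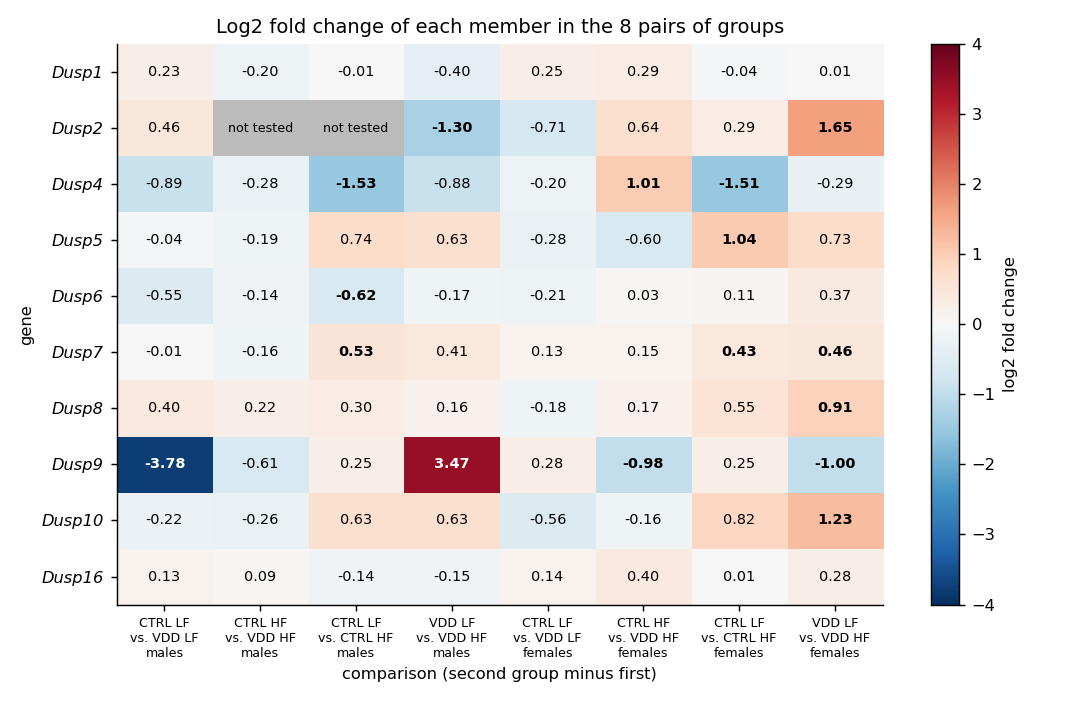
Log2 fold change (second group minus first) of each member in the 8 pairs of groups, 3 mice against 3, as numbers and colours. Bold numbers have an unadjusted p under 0.05 and grey cells were not tested. The largest values are those of Dusp9 in males, -3.78 and 3.47.

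Dusp6, which had 1029.8, 518 and 643 normalized reads in CTRL LF males and 440.2, 396 and 553 in CTRL HF males, differed by -0.62 (SE 0.26, limma unadjusted p = 0.0378), and its HF effect differed between the sexes by -0.64 (SE 0.27, unadjusted p = 0.0293, adjusted p = 0.494). Without mouse 2287, the highest CTRL LF male, the former value was -0.34. Between HF females of CTRL and VDD mothers Dusp4 differed by 1.01 (SE 0.36, unadjusted p = 0.0275, adjusted p = 0.241), with overlap of the groups. The VDD effect on Dusp4 differed between males and females by -0.98 (SE 0.46, unadjusted p = 0.0463, adjusted p = 0.739). Dusp16, whose substrates are JNK and p38, kept between 277 and 583 normalized reads in all 24 libraries and had no comparison with an unadjusted p under 0.05.

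The kinases on which these phosphatases act, and the kinases above them, formed a list of 20 genes. Of these 20 MAP kinase and MAP2K kinase genes, 1 was called higher and 0 lower under HF over 24 mice, against 5.79% and 3.65% of all genes. Their median log2 fold change was -0.07, against 0.01 over all genes. The 1 gene was Map2k6, an activator of p38, at 1.48 (SE 0.25, limma adjusted p = 0.000351), with 6.36 to 43.3 normalized reads under LF and 23.5 to 92.0 under HF. The p38 gene Mapk14 stood at -0.0044 (SE 0.06), the ERK gene Mapk3 at 0.07 (SE 0.09), and the JNK genes Mapk8 and Mapk9 at -0.15 (SE 0.10) and -0.03 (SE 0.06). The count by diet was 3 with scaling by total reads and 0 without the renal libraries. None of the 20 was called by maternal diet, against 0.103% of all genes. By sex 2 were called, both lower in males, against 4.54% of all genes called lower and 2.76% higher. They were Mapk13 at -2.49 (SE 0.35, adjusted p = 7.45e-05) and Mapk10 at -1.53 (SE 0.36, adjusted p = 0.00545), both scarce in males. Without the renal libraries 1 was called by sex.

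Genes that report MAP kinase signalling were called by diet in 2 of 12 and 2 of 26 tested genes of 2 lists, against 9.44% of all genes. Of the 12 genes of ERK feedback and output, Ccnd1, a cell cycle cyclin, was called higher under HF (0.99, SE 0.16, limma adjusted p = 0.000225) and Errfi1, an inhibitor of the EGF receptor, lower (-1.11, SE 0.23, adjusted p = 0.00158), and the median was 0.03. Without the renal libraries 1 of the 12 was called. Of the 26 immediate early genes 2 were called, both lower under HF, Maff at -1.34 (SE 0.25, adjusted p = 0.00072) and Nr4a3 at -1.47 (SE 0.35, adjusted p = 0.00419), with a median of 0.12. The count of immediate early genes was 0 without the 6 renal libraries and 4 without the 10. Fos stood at 0.24 (SE 0.35, adjusted p = 0.662), Egr1 at -0.01 (SE 0.28, adjusted p = 0.981) and Jun at 0.61 (SE 0.20, adjusted p = 0.0243). By maternal diet no gene of these lists was called, against 0.103% of all genes, and Fos (-0.04), Egr1 (0.08) and Jun (-0.11) had adjusted p of 0.782 or above. By sex Myc was called lower in males (-0.71, SE 0.13, adjusted p = 0.000609), and Klf4 (0.82, SE 0.16, adjusted p = 0.00108) and Klf6 (0.59, SE 0.14, adjusted p = 0.00578) higher. Over all genes 4.54% were called lower in males and 2.76% higher. Without the renal libraries 1 immediate early gene was called by sex.

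Of 15 tested atypical DUSP genes, which lack the kinase-binding domain of the typical members, 2 were called lower under HF. They were Dusp28 at -0.68 (SE 0.12, limma adjusted p = 0.00034) and Dusp18 at -0.84 (SE 0.19, adjusted p = 0.00286). Over all genes 3.65% were called lower, and 9.44% in either direction. By sex Dusp3 was called higher in males (0.67, SE 0.09, adjusted p = 6.14e-05) and Dusp14 lower (-1.14, SE 0.20, adjusted p = 0.000462), against 2.76% and 4.54% of all genes. With total reads, without the renal libraries and without the 10 libraries the count by diet was 1, and without the 10 the count by sex was 0. None of 8 genes of other MAP kinase phosphatases was called by diet, against 9.44% of all genes. Ptpn5, a tyrosine phosphatase gene, was called by sex, against 7.3% of all genes, with at most 1.28 normalized reads in males and 0 to 171 in females. Ptpn5 was not called with limma-voom or without the renal libraries.

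Since Dusp1 is known as a target of glucocorticoids, which rise in a fasted mouse, it was set beside 10 other genes of that response. Of these 10, 7 were called lower under HF over 24 mice and 0 higher, against 3.65% and 5.79% of all genes, with a median of -0.98. This list was chosen with earlier results of these data known, so the count is a description only. The count was 5 with scaling by total reads and 4 without the 6 renal libraries, 0 higher in both. Fkbp5, a chaperone partner of the glucocorticoid receptor, stood at -1.75 (SE 0.30, limma adjusted p = 0.000308), the clock gene Per1 at -1.25 (SE 0.22, adjusted p = 0.000382) and Pdk4 at -1.45 (SE 0.27, adjusted p = 0.000703). Tsc22d3 stood at -0.75 (SE 0.24, adjusted p = 0.0221). Dusp1 at -0.10 lay above all of these named genes, and the difference between them and Dusp1 was not tested. In single pairs of groups Fkbp5 was called in CTRL LF vs. CTRL HF males (-2.09, SE 0.21, adjusted p = 0.00404) and stood at -2.49 (SE 0.22, adjusted p = 0.0105) in VDD LF vs. VDD HF males, and Per1 was called in VDD LF vs. VDD HF males (-1.72, SE 0.12, adjusted p = 0.00742).

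Last, the genes whose levels followed each member most closely were sought among the 18399 tested genes. Likeness was Pearson's r of the deviations of log2(normalized reads + 1) from the group means over 24 libraries, which share depth and the mixture of cells in each sample, and it is given as a description. Dusp1 was closest to Sik1 (r = 0.891) and Btg2 (0.878), which are both known as quickly induced genes. Dusp5 was closest to Tent5c (0.916) and B4galt5 (0.894), and Dusp2 to the lymphocyte receptor gene Cd27 (0.862). For Dusp4 the closest were Camkmt (0.803) and Adrb1, the gene of a beta adrenergic receptor (0.771). Dusp9 was closest to Jup, the gene of the junction protein plakoglobin (0.809), Dusp8 to Rhobtb2 (0.882) and Pprc1 (0.857), and Dusp16 to Dzip1l (0.894) and Dock3 (0.888). Dusp10 was closest to Fam217b (0.788) and Dusp7 to Brf2 (0.755) and Zfp668 (0.749). Dusp6 was closest to an assembled locus (0.83) and to Amotl2 (0.809), and the second genes of Dusp2 and Dusp10 were assembled loci as well.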

How the data were processed

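Total RNA of retroperitoneal adipose tissue of 24 mice was sequenced from stranded polyadenylated libraries in pairs of reads. Per the study's methods and the submitters' processing notes, reads were trimmed, aligned to mm10 with STAR 2.7.0d, joined with transcripts assembled by Cufflinks 2.2.1, counted with featureCounts 1.6.1 and scaled with DESeq2. The sources used here do not state the strand setting. The authors deposited 8 comparison tables of 56899 entries with 6 libraries each, in log2(normalized reads + 1). Their columns of fold changes and p-values were not used, and 4 entries with repeated date-like names were dropped.

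Undoing the scaling gave whole reads for 100% of values within 0.02, between 13346779 and 18484346 per library. Each pair of groups was fitted in its own table, and comparisons over 24 mice on reads scaled together by the median of ratios, with 1 mean per group. The test was limma 3.58.1 (R 4.3.3) with a trend, on genes that reached 10 normalized reads in 3 or more libraries, with Benjamini-Hochberg adjustment over all of them. Calls needed an adjusted p under 0.01 together with a fold over 1.5 or under 0.66. Fold changes are on the log2(value + 1) scale and understate those of low genes. Every member was named, with statistics over 24 mice and wherever its unadjusted p was under 0.05. Other lists gave their called genes and a few fixed ones. Levels per kb used merged GENCODE M21 exons. The fitting code was tested on simulated data. The members and lists were chosen with earlier results of these data known.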

Additional observations from a re-analysis of the deposited data

Results flagged for a closer look

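Both results below are differences between the sexes in the effect of the HF diet among the offspring of VDD mothers, from contrasts added after the data were seen. Dusp9 was higher under HF in males and lower in females, and the difference between the effects was 4.48 on the log2 scale (SE 0.73, limma adjusted p = 0.0189). It ran from 3.94 to 4.97 when 1 library was left out, with adjusted p from 0.00576 to 0.0572. Dusp2 was lower under HF in males and higher in females, and the difference was -2.95 (SE 0.74, limma adjusted p = 0.0927), or -2.34 without VDD HF female 2081, the library with the most T-lymphocyte RNA. In both genes the LF and HF groups did not overlap in either sex and pointed in opposite directions, as in 0.554% of all genes tested. In this contrast 0.0163% of all genes passed both thresholds, and neither Dusp9 nor Dusp2 was among them. Among offspring of CTRL mothers the same difference was -0.01 for Dusp9 (SE 0.73, adjusted p = 1) and -1.36 for Dusp2 (SE 0.74, adjusted p = 0.982).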

How the results depend on the processing

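The number of members called depended on the settings in the comparison by diet over 24 mice. It was 2 as reported, 5 at an adjusted p under 0.05 with no fold threshold, 1 with no filter on low values (Dusp4), 0 without the 6 libraries named renal and 1 without the 10 libraries with muscle, kidney or T-lymphocyte genes (Dusp10), a setting chosen after the data were seen. Leaving out 1 library gave 1 to 2 called members. By maternal diet the count went from 0 to 1 (Dusp9) at an adjusted p under 0.05 and with total reads, and from 0 to 1 over the fits that left out 1 library, where Dusp9 was called without CTRL LF male 2293 or VDD LF male 2302. By sex it went from 1 to 0 without the 10 libraries. In CTRL LF vs. VDD LF males it was 1 with 1 fit over 24 libraries, and between VDD LF and VDD HF males 1 with that fit and 1 at an adjusted p under 0.05, each time Dusp9. The other 311 of 337 counts stayed within 1.5 times. No member was called in most comparisons, so many of these were counts of 0 that stayed at 0. The fits without libraries had fewer samples, and beyond that the cause was not tested.

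The signs that changed were of values that were not called. By diet Dusp1 stood at 0.064 with total reads and 0.0094 without the renal libraries, Dusp2 at 0.054 and Dusp6 at 0.098 with total reads, and Dusp6 at 0.030 without the 10 libraries. By maternal diet Dusp7 stood at -0.10 with total reads, Dusp1 at -0.088 and Dusp8 at -0.069 with a skeletal muscle score as covariate, and Dusp2 at -0.20 and Dusp8 at -0.024 without the 10 libraries. By sex Dusp10 stood at -0.18 without the renal libraries and at -0.34 without the 10, Dusp4 at -0.065 and Dusp16 at -0.14. With 1 library left out, values by diet ran from -0.24 to 0.10 (Dusp1), -0.25 to 0.023 (Dusp2), -0.14 to 0.0011 (Dusp6) and -0.050 to 0.065 (Dusp16). By maternal diet they ran from -0.0023 to 0.34 (Dusp1), -0.0069 to 0.26 (Dusp2), -0.19 to 0.044 (Dusp4), -0.015 to 0.059 (Dusp7) and -0.0097 to 0.28 (Dusp8), and by sex from -0.052 to 0.19 (Dusp4) and -0.048 to 0.19 (Dusp10). Of the counts of called genes in the other lists, 1941 of 2022 stayed within 1.5 times, among them counts that stayed at 0. No paired analysis was possible because the sources used here give no litter or other pairing of the mice. The columns carry mouse numbers that no label ties to the replicate numbers. With 3 mice a group, low members such as Dusp2 and Dusp9 rest on few reads.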
